A study of Mus musculus with 6 samples.

Results

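The receptors of the epidermal growth factor (EGF) family, their ligands and their feedback inhibitor were followed as 10 genes, each with a single row among the 20323 rows of the deposited table. They were taken by symbol: the receptors EGFR, ERBB2 and ERBB3, the ligands HBEGF, AREG, EREG, TGFA, BTC and NRG1, and the inhibitor ERRFI1. RNA-seq libraries came from RFB cells, which the labels call a kidney fibroblast line. In 3 libraries the cells had been given TGF-β plus CXCL10, a chemokine, with 5 µl in the sample titles and no concentration. In the other 3, titled NC, they had been given TGF-β, the cytokine that drives fibroblasts toward a matrix-producing state, so that both groups carry TGF-β and no untreated cells were compared. The labels give mouse as the organism while every row is a human Ensembl gene, and the series text names a SUV39H1 knockdown that no sample label gives. All levels are therefore levels on human gene models in 1 cell line, and nothing in the labels says that replicates were separate cultures.

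ERBB receptors are tyrosine kinases that dimerise when a ligand binds and then signal through the RAS-ERK, PI3K and phospholipase C routes. EGFR binds HBEGF, AREG, EREG, TGFA and BTC, ERBB3 binds neuregulins such as NRG1 and has a weak kinase of its own, and ERBB2 has no known ligand and acts as a partner for the others. The ligands are made as membrane proteins and are cut free by metalloproteases of the ADAM family. ERRFI1 (also called MIG6) binds the EGFR kinase domain and blocks it. In the kidney EGFR signalling is known both for tubule repair and, when it persists, for fibrosis in mouse models.

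Libraries held 12838106 to 15587409 counts. All 10 fibroblast markers passed the filter on low counts, as did some markers of other cell types. The fibroblast markers summed to 10395 to 11018 FPKM (fragments per kilobase, scaled for depth) with CXCL10 and 10732 to 12079 FPKM with TGF-β alone. COL1A1 alone averaged 5403 FPKM with CXCL10 and 6144 FPKM with TGF-β alone. Of 5 myofibroblast markers 4 passed the filter, and POSTN had 7 counts over all 6 libraries. Of 11 tubule markers, 5 passed the filter on low counts. CDH16, LRP2 and UMOD had 0 counts in all 6 libraries and CDH1 reached at most 0.961 FPKM, while the renal lineage factor PAX8 averaged 3.03 FPKM with CXCL10 and 2.77 FPKM with TGF-β alone, and the water channel AQP1 4.37 and 4.95 FPKM. The epithelial keratins KRT8 and KRT18 were abundant. KRT8 averaged 1127 FPKM with CXCL10 and 1144 FPKM with TGF-β alone, and KRT18 891 and 787 FPKM in the same order. Of 6 endothelial markers 2 passed the filter, with TEK the highest at 10.3 and 10.9 FPKM. Of 7 leukocyte markers 3 passed, with CD68 the highest at 23.8 and 25.3 FPKM. Replicate 1 of both groups stood apart from the other libraries, so the results that rest on them are also given without them.

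Of the 10 members, only EGFR, ERBB2, HBEGF and ERRFI1 were expressed well above the limit of detection. EGFR and HBEGF were higher with CXCL10, by 1.38-fold and 1.55-fold, ERRFI1 was lower at 0.894-fold, and ERBB2 was at 0.968-fold. None of these passed the test without a replicate block (edgeR quasi-likelihood test, adjusted p from 0.161 to 0.805), in which 0 of 11970 genes passed, the smallest adjusted p was 0.161, while 2449 genes lay under 0.05 before adjustment. By adjusted p, limma-trend on log2(FPKM + 1) also called 0 genes, and DESeq2 called 1.44% of genes higher, EGFR among them, and 1.36% lower. The replicate numbers paired the libraries by the rule in the methods, though replicates 2 and 3 were told apart only weakly. With the number as a block, EGFR and HBEGF rose and ERRFI1 fell. That is 3 of the 5 members tested, where 17.7% of all tested genes were called. By direction it is 2 members among the 9.71% of genes called higher and 1 among the 8.04% called lower, and over all genes 1162 were higher and 962 lower with TMM scaling and 877 and 1359 with library totals alone. Without TGF-β replicate 1 and without the block, 2 members were called higher and 0 lower, beside 10.7% and 8.61% of all genes. CXCL10 replicate 1, which also stood apart, stays in that fit. In bulk RNA fewer cells of a type and less RNA per cell cannot be told apart.

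**Figure D1:**
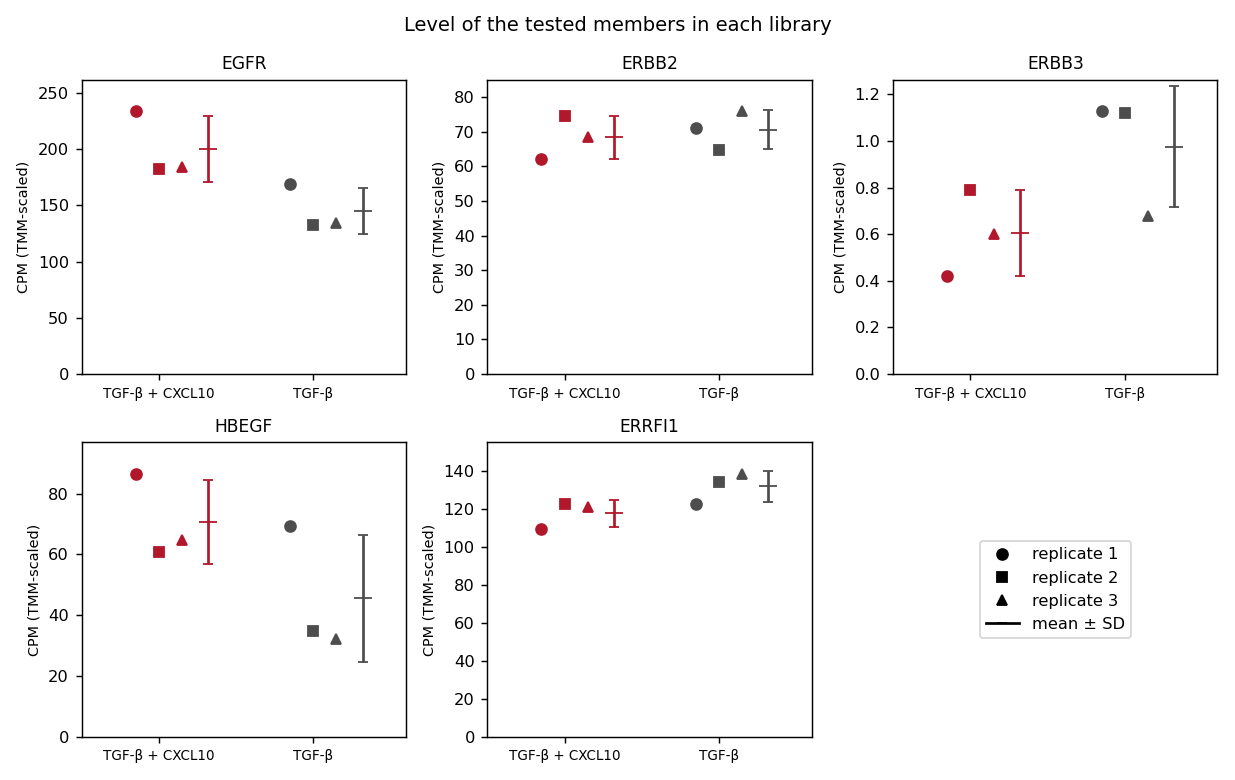
Level of each tested member in CPM (counts scaled for depth, here by TMM, linear axes from 0), with TGF-β + CXCL10 at the left and TGF-β at the right of each panel. Symbols mark the replicate number and bars the mean ± SD (n = 3). EGFR groups do not overlap, while TGF-β replicate 1 lies among the CXCL10 libraries for HBEGF at 69.5 CPM.

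Among the receptors EGFR, the receptor for most of the ligands, had 234, 182 and 184 CPM (counts scaled for library depth) in CXCL10 replicates 1 to 3, against 169, 132 and 135 CPM in TGF-β replicates 1 to 3. Every CXCL10 library lay above every TGF-β library, and replicate 1 was the highest of its group in both. Groups without overlap and higher with CXCL10 were seen for 11.1% of all tested genes. The log2 change was 0.46 (SE 0.12, adjusted p = 0.161) without the block and 0.46 (SE 0.05, adjusted p = 3.29e-05) with it. The same-numbered libraries differed by 0.47, 0.46 and 0.45 on the log2 scale. The EGFR change was thus of nearly the same size in each pair, although the level itself moved by 0.34 (log2) between TGF-β replicate 1 and the other TGF-β libraries. Without TGF-β replicate 1 the change was 0.59 (adjusted p = 0.00298 by edgeR without the block), and without replicate 1 of both groups it was 0.46 with the block. EGFR was also called by DESeq2 without the block (adjusted p = 0.0180), and the authors' deposited table gives a log2 change of 0.43 and an adjusted p of 0.0248.

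ERBB2, the partner receptor, had 62.2, 74.4 and 68.5 CPM in the CXCL10 libraries, against 71.1, 64.8 and 75.9 CPM in the TGF-β libraries. The groups overlapped throughout. Its log2 change of -0.05 had a 95% interval from -0.25 to 0.16 (adjusted p = 0.805 by edgeR without the block, 0.735 with it), and the pairs differed by -0.19, 0.20 and -0.15. On the FPKM scale the sign turned, at 0.04 on log2(FPKM + 1).

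The length by which the authors' FPKM divides ERBB2 counts differed between libraries. The share of a library's counts divided by the FPKM gave a length of 3959, 3892 and 3911 bases in the CXCL10 libraries, against 4412, 4299 and 4192 bases in the TGF-β libraries. The groups did not overlap and the mean with CXCL10, 3920 ± 34.3 bases, was 8.85% shorter than the 4301 ± 110 bases with TGF-β alone (SD, n = 3 each). An exact two-sided permutation test gave p = 0.10, the smallest it can give with 3 against 3. Of 8428 genes with at least 100 counts in each library, 5.55% were shorter with CXCL10 without overlap, and 1.54% were so by at least the ERBB2 ratio. How the authors set this length is not stated in the labels or headers. HBEGF had the same length of 2358 bases in all 6 libraries, and EGFR lengths of 9500 to 9905 bases overlapped between groups.

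**Figure D2:**
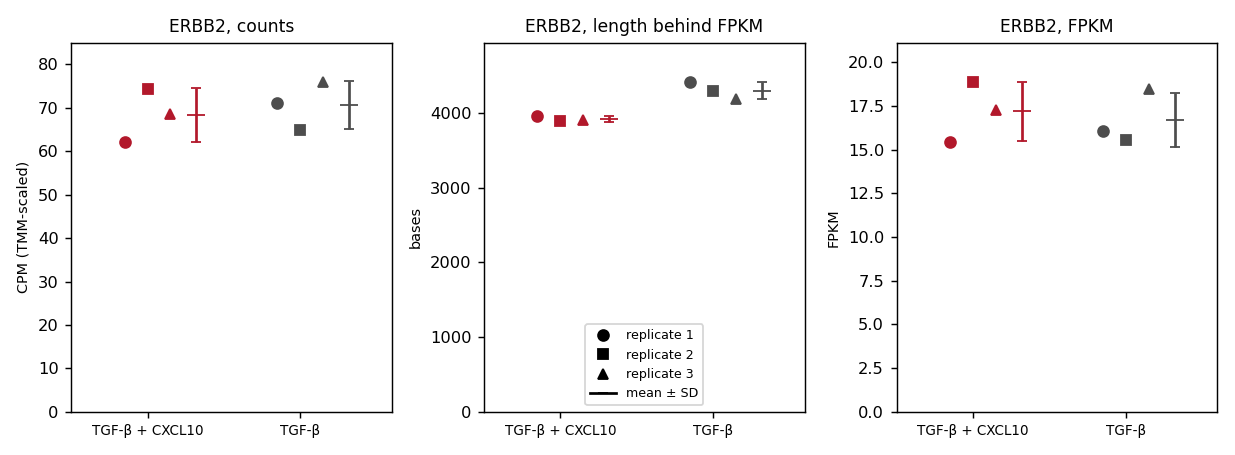
ERBB2 in each library as CPM (left), as the length in bases behind its FPKM (middle) and as FPKM (right), all on linear axes from 0, with TGF-β + CXCL10 left of TGF-β in each panel and bars for mean ± SD (n = 3). The lengths do not overlap between groups, at 3892 to 3959 and 4192 to 4412 bases, while CPM and FPKM do.

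ERBB3, the neuregulin receptor, was barely detected, with 6, 10 and 8 counts in the CXCL10 libraries against 16, 18 and 9 in the TGF-β libraries. These are levels of 0.422 to 0.790 CPM with CXCL10 and 0.676 to 1.13 CPM with TGF-β alone, and the groups overlapped. The log2 change of -0.70 (SE 0.45, adjusted p = 0.401 by edgeR) had a 95% interval from -1.71 to 0.31, and no difference was detectable at this depth. The remaining family receptor, ERBB4, had 1 count in the CXCL10 libraries together and 0 in the TGF-β libraries.

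The ligand message was almost wholly HBEGF, a heparin-binding EGF-like factor. It made up 98.2% to 99.4% of the summed FPKM of the 6 ligands in the CXCL10 libraries and 98.1% to 98.7% in the TGF-β libraries. HBEGF had 86.5, 60.7 and 64.8 CPM in CXCL10 replicates 1 to 3, against 69.5, 34.9 and 32.2 CPM in TGF-β replicates 1 to 3. TGF-β replicate 1 lay above CXCL10 replicates 2 and 3, so the groups overlapped, while each CXCL10 library was above its same-numbered TGF-β library.

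The log2 change of HBEGF was 0.64 (SE 0.26, adjusted p = 0.220) without the block and 0.69 (SE 0.10, adjusted p = 0.000583) with it. The pairs differed by 0.32, 0.80 and 1.01 on the log2 scale. Leaving out TGF-β replicate 1 gave 1.08 (SE 0.14, adjusted p = 0.000872 by edgeR without the block), and leaving out replicate 1 of both groups gave 0.90 with the block. HBEGF was not called by DESeq2 without the block (adjusted p = 0.370), and the authors' deposited table gives it an adjusted p of 0.515. TGF-β replicate 1 stood 1.05 (log2) above the other TGF-β libraries, which is more than the 0.90 between CXCL10 and TGF-β replicates 2 and 3. For EGFR the same values were 0.34 and 0.46. Without that library both changes were larger, but that fit keeps CXCL10 replicate 1. This library stood 0.35 (EGFR) and 0.46 (HBEGF) above CXCL10 replicates 2 and 3 on the log2 scale. With replicate 1 of both groups left out, the EGFR change with the block was 0.46, no larger than with all libraries.

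**Figure D3:**
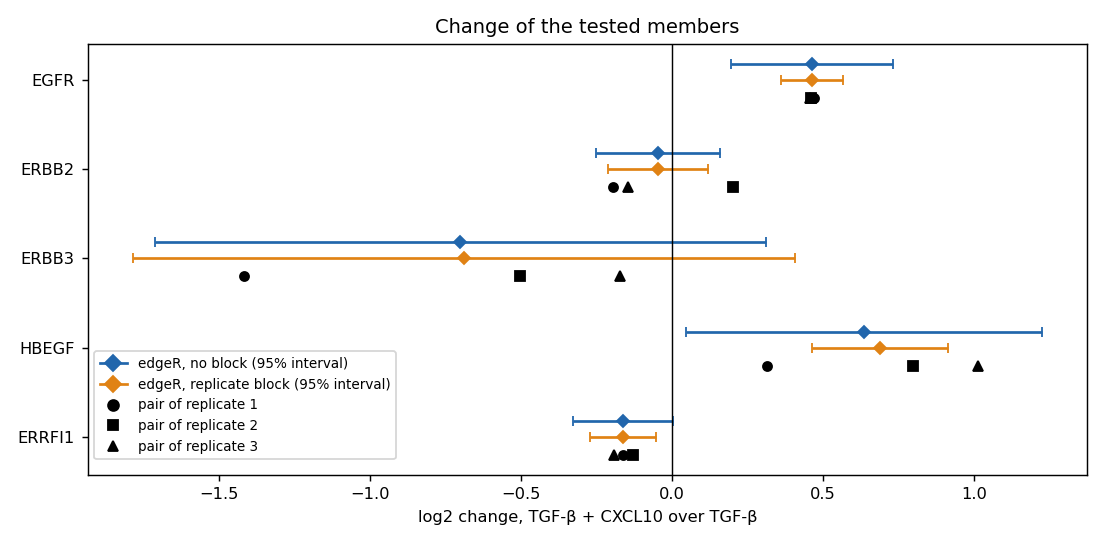
Log2 change of the tested members, TGF-β + CXCL10 over TGF-β, by edgeR without the block (blue) and with it (orange), each with a 95% interval, and black symbols for the log2 difference of each same-numbered pair of libraries. The 3 EGFR pairs lie between 0.45 and 0.47 and the HBEGF pairs spread from 0.32 to 1.01.

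The other ligands had few or no counts. By counting error alone, a count of 0 in a library leaves room for a level of 0.187 to 0.237 CPM, depending on its depth. NRG1, the ligand of ERBB3 and ERBB4, had 5, 3 and 7 counts in the CXCL10 libraries against 3, 0 and 1 in the TGF-β libraries. Scaled for depth, the lowest CXCL10 library (0.237 CPM) lay just above the highest TGF-β library (0.211 CPM). Both held 3 counts, so the groups were kept from overlapping by the depth scaling alone. The exact two-sided permutation test gave p = 0.10, the smallest possible with 3 against 3. The summed counts, 15 with CXCL10 and 4 with TGF-β alone, gave a ratio of 4.06 with a 95% interval from 1.29 to 16.8 that covers counting error only. Fitted without the filter on low counts, NRG1 had an adjusted p of 0.410 (edgeR).

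EREG, an EGFR ligand of low affinity, had 5, 10 and 1 counts with CXCL10 against 7, 6 and 3 with TGF-β alone. AREG, another EGFR ligand, had 2, 4 and 0 counts with CXCL10 against 3 in each TGF-β library. TGFA, transforming growth factor α, had 5, 0 and 0 counts with CXCL10 against 1, 0 and 1 with TGF-β alone. Groups of all 3 genes overlapped, with summed ratios of 1.08 (0.507 to 2.31) for EREG, 0.722 (0.211 to 2.27) for AREG and 2.71 (0.443 to 28.4) for TGFA in counting error alone. BTC, betacellulin, had 0 counts in all 6 libraries, as had EPGN, NRG2 and NRG3 of the wider family. EGF had 1 count with CXCL10 and 3 with TGF-β alone, and NRG4 had 7 and 7, so that 0 of these 6 further family genes could be tested.

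**Figure D4:**
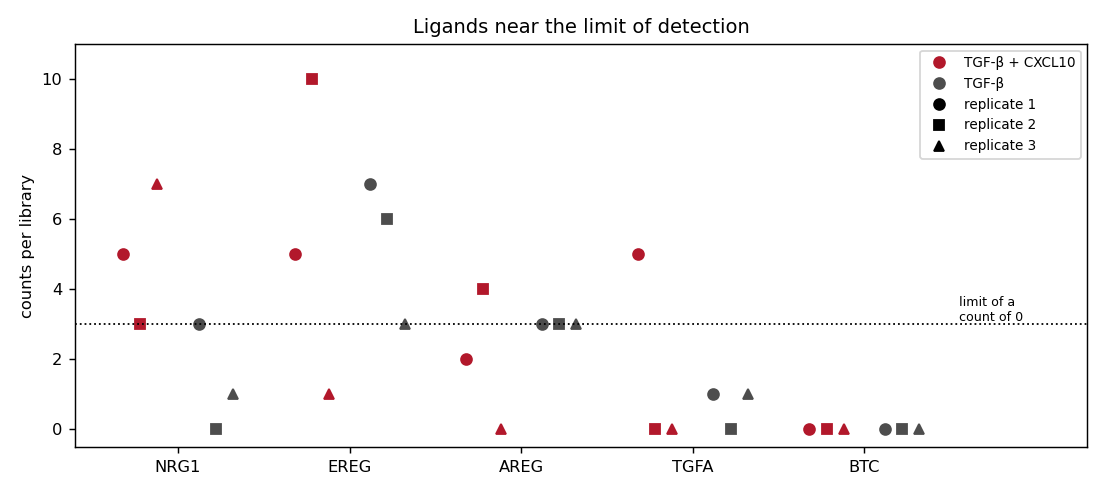
Counts per library of the 5 ligands left out of the test, with TGF-β + CXCL10 libraries (red) left of TGF-β libraries (grey) and symbols for the replicate number. The dotted line marks 3 counts, the limit that a count of 0 allows. Most points lie at or under it, and the highest is EREG at 10 counts.

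ERRFI1, the inhibitor of the EGFR kinase and itself a gene induced by EGFR signalling, was the most abundant member per length. It had 110, 123 and 121 CPM in the CXCL10 libraries, against 123, 135 and 139 CPM in the TGF-β libraries. The groups met at CXCL10 replicate 2, at 123.05 CPM, and TGF-β replicate 1, at 122.97 CPM, and otherwise did not overlap. The log2 change was -0.16 without the block (SE 0.07, adjusted p = 0.251) and -0.16 with it (SE 0.05, adjusted p = 0.0413), and each pair moved down, by -0.16, -0.13 and -0.19. Without TGF-β replicate 1 and without the block it was -0.21 (adjusted p = 0.0552), and without replicate 1 of both groups the blocked call held (0.0285). It was lost without replicate 2 (adjusted p = 0.145) or replicate 3 (0.281) of both groups, and with DESeq2 and the block (0.211). The authors' deposited table gives ERRFI1 an adjusted p of 0.469. EGFR and ERRFI1 thus differed in opposite directions in all 3 pairs, and these directions were the same under TMM, RLE and library-total scaling.

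Per length ERRFI1 had the highest level of the members. It averaged 41.7 ± 3.86 FPKM with CXCL10 and 46.9 ± 3.01 FPKM with TGF-β alone (SD, n = 3 each). HBEGF followed with 29.5 ± 5.74 and 19.5 ± 8.55 FPKM, EGFR with 20.4 ± 3.25 and 15.1 ± 2.24 FPKM, and ERBB2 with 17.2 ± 1.71 and 16.7 ± 1.55 FPKM in the same order of groups. The library values of HBEGF and EGFR overlapped with TGF-β alone, and those of EGFR and ERBB2 overlapped in both groups, with EGFR below ERBB2 in mean with TGF-β alone. ERBB3 was far lower, at 0.310 ± 0.053 FPKM with CXCL10 and 0.344 ± 0.141 FPKM with TGF-β alone, and no other ligand exceeded 0.286 FPKM in any library.

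The genes around the receptors were examined as 5 lists with tested members, and none of their genes passed edgeR's test on all 6 libraries without the block, while DESeq2 without the block made calls in the attenuation and ERK response lists. Counts with the block are to be read beside the 9.71% of all genes called higher and 8.04% called lower by edgeR, 5.71% and 3.79% by DESeq2, and 2.82% and 2.94% by limma-trend on log2(FPKM + 1). Without replicate 2 of both groups the edgeR shares were 5.66% and 4.67%, and without replicate 3 4.46% and 3.02%. Without TGF-β replicate 1 and without the block, edgeR called 10.7% of all genes higher and 8.61% lower. That fit is unbalanced, since CXCL10 replicate 1 stays in it, and an offset of replicate 1 then counts toward the change. In that fit 6 of 13 shedding genes and 14 of 20 ERK response genes were higher and 1 of each lower. Of 16 cascade genes 2 were higher and 0 lower, of 12 genes of the PI3K, PLC and STAT arms 0 and 1, and of 16 attenuation genes 4 and 1. Release of ligands was the first. Of 13 shedding genes, 6 rose and 1 fell with the block, beside 9.71% and 8.04% of all genes, with a median log2 change of 0.18 beside -0.01 over all tested genes. The list mixes proteases with their regulators and an inhibitor, so its count and median give no direction of ligand release. ADAM19, a metalloprotease that cuts neuregulin, rose by 0.92 (SE 0.09, adjusted p = 1.88e-05), at 2206 ± 356 CPM with CXCL10 and 1227 ± 527 CPM with TGF-β alone. The metalloprotease inhibitor TIMP3 rose by 0.31, FRMD8, which stabilises the iRhom-ADAM17 complex, by 0.31, and ADAM9 by 0.21. The gene that fell was ADAM17, the main protease for EGFR ligands, at -0.25 (SE 0.07, adjusted p = 0.0256), with 49.9 ± 3.28 CPM with CXCL10 and 59.2 ± 4.003 CPM with TGF-β alone. The ADAM17 call was lost with DESeq2 (adjusted p = 0.142) and limma-trend (0.0777), both with the block. Of the whole list DESeq2 with the block called 6 higher and 0 lower, and limma-trend 1 higher, ADAM19, and 0 lower. For ADAM19 TGF-β replicate 1 stood 0.99 (log2) above its group, and for ADAM17 0.16 below it. Without replicate 1 of both groups 7 shedding genes rose and 1 fell, beside 12.7% and 10.9% of all genes. The same counts were 3 and 0 without replicate 2 and 4 and 0 without replicate 3.

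In the core of the pathway the called shares lay near those of all genes. Of 16 adaptors and RAS-ERK cascade genes, 2 rose and 0 fell with the block (median -0.03), beside 9.71% and 8.04% of all genes, namely the adaptor SHC1 (0.16, adjusted p = 0.0290) and MAPK3, which encodes ERK1 (0.22, adjusted p = 0.0302). SHC1 turned to -0.03 on log2(FPKM + 1). MAP2K2, the most abundant after SHC1 per length, was at -0.06 (adjusted p = 0.443 by edgeR with the block). Of 12 genes of the PI3K, PLC and STAT arms, 1 rose and 0 fell (median -0.02): AKT1, a kinase downstream of PI3K (0.16, adjusted p = 0.0465). Its relative AKT2 was at 0.06 (adjusted p = 0.587 by edgeR with the block). Without replicate 1 of both groups 3 rose and 0 fell in the cascade, and 1 rose and 1 fell in the other arms. Without replicate 2 or replicate 3 of both groups 0 genes of either list passed, nor did any with DESeq2 or limma-trend and the block.

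Among 16 genes of receptor attenuation and traffic, 4 rose and 3 fell with the block (median 0.04), beside 9.71% and 8.04% of all genes. DESeq2 with the block called 4 higher and 0 lower, and limma-trend with the block called 0 in either direction. LRIG3 and LRIG1, of a family of transmembrane proteins of which LRIG1 restrains ERBB receptors, rose by 0.64 (SE 0.08, adjusted p = 0.000183) and 0.63 (SE 0.11, adjusted p = 0.00123). LRIG3 averaged 40.7 ± 7.41 CPM with CXCL10 and 25.9 ± 3.06 CPM with TGF-β alone, and LRIG1 24.6 ± 2.19 and 16.0 ± 3.06 CPM. DESeq2 called both without the block (adjusted p = 0.00626 and 0.0195). SH3KBP1, an adaptor that links CBL to endocytosis, rose by 0.31, and HGS, which sorts ubiquitinated receptors to lysosomes, by 0.25. The endocytic adaptor EPN1, among the most abundant of the list per length, was at 0.05 (adjusted p = 0.674 by edgeR with the block). The 3 that fell were EPS15 (-0.27), an endocytic adaptor, RNF41 (-0.25), a ubiquitin ligase for ERBB3, and the receptor phosphatase PTPRJ (-0.18). EPS15 was also called without replicate 1 of both groups (adjusted p = 0.000140) and RNF41 without replicate 2 (0.00633), while without replicate 3 0 of the 3 passed. The LRIG1 and LRIG3 calls held in the fits without replicate 1, 2 or 3, which have only 2 libraries per group. Both calls were lost under limma-trend with the block (adjusted p = 0.0823 and 0.0718).

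Genes known to respond to ERK signalling had the largest median of the 5 lists. The lists were chosen with earlier results of these data known, so an excess over all genes is a description only. Of 20 tested, 13 rose and 1 fell with the block, beside 9.71% and 8.04% of all genes, with a median log2 change of 0.58 beside -0.01 over all genes. DESeq2 without the block called 9 higher and 1 lower, beside 1.44% and 1.36% of all genes, and limma-trend with the block called 12 and 0. SPRY2, a feedback inhibitor of receptor tyrosine kinase signalling, rose by 0.97 (SE 0.08, adjusted p = 9.91e-06), with 42.2 ± 12.1 CPM with CXCL10 and 21.5 ± 6.51 CPM with TGF-β alone. PHLDA1 rose by 0.77, CCND1 (cyclin D1) by 1.28, the MAP kinase phosphatase DUSP4 by 1.05 and the stress-response gene IER3 by 0.31. JUNB, the most abundant of the list per length, was at 0.11 (adjusted p = 0.175). EGR1, an immediate early transcription factor, was the gene that fell (-1.10, SE 0.24, adjusted p = 0.00703), at 3.09 ± 0.84 CPM with CXCL10 and 6.77 ± 2.42 CPM with TGF-β alone. The list median of TGF-β replicate 1 stood 0.49 (log2) above the other TGF-β libraries, where that of all genes was at -0.0017. Many receptors other than ERBB induce these genes, and the part of EGFR in their change was not tested. Counts of this list without replicate 1, 2 or 3 of both groups ranged from 12 to 14 higher and 0 to 1 lower.

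**Figure D5:**
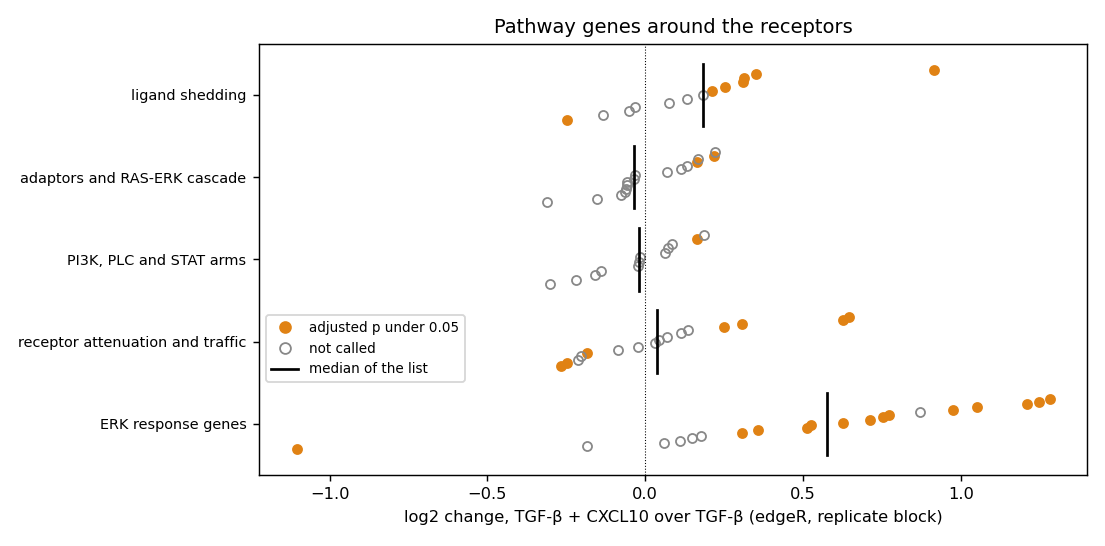
Log2 change with the replicate block, TGF-β + CXCL10 over TGF-β, for every tested gene of 5 lists around the receptors. Filled points passed an adjusted p of 0.05, open points did not, and black bars mark list medians, which run from -0.03 for the RAS-ERK cascade to 0.58 for ERK response genes.

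Over the 6 libraries the log2 CPM of IQGAP2 and SEC23A was among those most like that of EGFR over 9704 genes of at least 5 CPM, with Pearson's r of 0.999 in each. Closest to HBEGF were KPNB1, UBE2F and PSMD8 (r = 0.999 in each), and closest to ERRFI1 were SYT15, KCNH2 and CXXC5 (0.999, 0.999 and 0.998). With 6 points and this many genes such values are a description only, and the libraries share their groups and replicate numbers.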

How the data were processed

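Raw counts and FPKM per gene and library were used as the authors deposited them, per the file headers. The deposited table further gives the authors' own log2 ratio between group means of FPKM, with a p-value and an adjusted p per gene from a test that neither headers nor labels describe. Per the labels' protocols, RNA came from an RNeasy kit and libraries from a SMARTer mRNA kit. Mouse builds GRCm38 and mm10 stand in the submitters' processing notes, yet 0 of 20323 row identifiers matched a mouse annotation, so no coordinates or sequences are given. Aligner, counter and use of strand: not given in the sources used here.

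For the deposited counts, edgeR 4.0.16 under R 4.3.3 was used, with TMM scaling and the quasi-likelihood test. Low counts were filtered by filterByExpr at 10 per library and 15 in all. Benjamini-Hochberg adjustment ran over 11970 genes, with a threshold of 0.05. DESeq2 1.42.0 and limma 3.58.1 served as alternatives. Limma-trend ran on log2(FPKM + 1). CPM values are TMM-scaled, and log2 CPM for the likeness of patterns uses a prior count of 2. Intervals are 95%, and the limit of a count of 0 is 3 counts.

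The principal fit has no replicate block, and the fit with the replicate number as a block is given beside it. Across genes, the deviation of a CXCL10 library from its group mean correlated with that of the TGF-β library of its own number at 0.330, 0.121 and 0.163. The rule for pairing asks for values over 0.1. Deviations sum to 0 over each group, so a high value for libraries of the same number lowers those of unlike number. Libraries of unlike number correlated at -0.223 to 0.0825. Among these, CXCL10 replicate 2 with TGF-β replicate 3 gave 0.0825, and CXCL10 replicate 3 with TGF-β replicate 2 gave 0.0803. The numbers thus set replicate 1 clearly apart, while replicates 2 and 3 were told apart only weakly. The pairing thus comes from the counts, not the labels. Libraries of a group differed by more than sampling noise, with chi-square per degree of freedom from 2.80 to 18.2. Replicates may be technical, and p-values then measure only that spread.

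Groups follow the sample titles. Members and lists were chosen with earlier results of these data known. Named list genes are the 2 highest in FPKM, up to 4 with the lowest p among those called with the block, and those that decide a count of 5 or fewer. A gene that the likeness of patterns would name is not reported here. Scalings, filters, tools and left-out libraries were varied as alternatives. Fits with the block and without a replicate number of both groups hold 2 libraries per group and few residual degrees of freedom. Their adjusted p-values are therefore uncertain, and the smallest was 1.8e-95 (edgeR, without replicate 1).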

Additional observations from a re-analysis of the deposited data

How the results depend on the processing

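EGFR and HBEGF kept their direction in all 19 alternatives, at 0.34 to 0.59 and 0.45 to 1.08 (log2), and were called in 10 and 9 of them. ERRFI1 kept its direction in 19, at -0.21 to -0.11, and was called in 3. ERBB3 stayed below 0 in 18, and was not fitted without replicate 2 of both groups. Beside 0 called in the principal fit, the replicate block called 1162 genes higher and 962 lower (members 2 and 1), and library totals with the block 877 and 1359 (2 and 1). DESeq2 called 172 and 163 (1 and 0), and with the block 684 and 454 (2 and 0). Limma-trend with the block called 337 and 352 with a pseudocount of 1 and 332 and 347 with 0.1 (2 and 0 in both). Leaving out single libraries without the block, or both libraries of a number with it, gave 0 to 1533 higher and 0 to 1313 lower (members 0 to 2 and 0 to 1). Of the edgeR fits without the block, only that without TGF-β replicate 1, in which CXCL10 replicate 1 stays, gave calls, 1302 and 1046. With the block the counts were 1533 and 1313 without replicate 1, 680 and 561 without replicate 2, and 539 and 365 without replicate 3.

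The sign of ERBB2 turned under limma-trend on FPKM (0.040 with a pseudocount of 1, with and without the block, and 0.042 with 0.1) and in fits with the block without replicate 1 (0.028) or 3 (0.011). Leaving out single libraries gave ERBB2 -0.11 to 0.019. SHC1 turned under limma-trend (-0.034 and -0.035). AKT2 turned with the block without replicate 2 (-0.042). EPN1 turned with library totals alone (-0.00017), under limma-trend (-0.034 and -0.035) and with the block without replicate 2 (-0.042), and ran from -0.017 to 0.10 over single left-out libraries. None of these turned values was called. The cause was not tested. With library totals alone ERBB2 was at -0.090, and the log2 ratio of the lengths behind its FPKM was -0.134. The length enters the fits on FPKM and not those on counts. Depth limits AREG, EREG, TGFA, BTC, NRG1 and ERBB3, which had at most 18 counts in a library.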

Other observations

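Ratios of members within a library were compared, first on the FPKM scale. ERRFI1 stood at 1.55, 2.45 and 2.30 times EGFR in the CXCL10 libraries and at 2.46, 3.55 and 3.499 times EGFR in the TGF-β libraries, so that the groups just failed to overlap. HBEGF stood at 1.496, 1.40 and 1.43 times EGFR with CXCL10, a narrow range, and at 1.66, 1.11 and 1.004 times EGFR with TGF-β alone. EGFR stood at 1.56, 0.96 and 1.10 times ERBB2 with CXCL10 and at 1.10, 0.89 and 0.75 times ERBB2 with TGF-β alone. On the CPM scale, which does not use the length behind ERBB2 FPKM that differed between groups, EGFR stood at 3.76, 2.44 and 2.69 times ERBB2 with CXCL10 and at 2.37, 2.04 and 1.77 times ERBB2 with TGF-β alone, with no overlap. Exact two-sided permutation tests gave p = 0.10 for ERRFI1 over EGFR on both scales and for EGFR over ERBB2 in CPM, the smallest that 3 against 3 can give. They gave 0.30 for EGFR over ERBB2 in FPKM, and on both scales 0.40 for HBEGF over EGFR and 0.30 for HBEGF over ERRFI1. Adjusted over the 8 tests (4 ratios on both scales) the values were 0.267 for those at 0.10 and 0.40 for the others.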
